A study of Mus musculus with 36 samples.

Results

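To follow chromatin accessibility at the genes encoding the transcription factors TOX and TOX2, the ATAC-seq peaks of both genes were collected from a table of read counts over mouse CD4 T cell libraries. A peak was taken when its midpoint was nearer to a transcription start site of a protein-coding transcript of Tox or Tox2 than to that of any other protein-coding gene, or when it overlapped the body of either gene. The rule used positions only. It gave 103 of 71509 peaks, of which 89 belonged to Tox and 14 to Tox2. Tox (ENSMUSG00000041272.13) lay on the minus strand of chromosome 4 of GRCm39, from base 6686353 to base 6991644, and Tox2 (ENSMUSG00000074607.13) on the plus strand of chromosome 2, from base 163045021 to base 163166191.

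In ATAC-seq, a transposase cuts accessible DNA, so that the number of reads over a peak is a measure of how open it is. The study asked how heterochromatin proteins HP1α and HP1γ act on conventional CD4 T cells (Tconv) that are exposed to regulatory T cells (Treg). All cells came from the spleen and were labelled CD4 T cells, and 2 mouse lines were used, each with knockout (KO) and wild-type (WT) cells. In the HP1α line, a LoxP-flanked Hp1a allele was deleted with CMV-cre, which acts in the whole animal. In the HP1γ line, a floxed Hp1g allele was deleted with Cd4-cre, which acts in developing T cells. Each genotype was profiled in 3 conditions. Naive cells were taken before transfer. Tconv were TCR Vβ6+ cells, enriched for cells that recognise the donor, sorted 3 weeks after transfer into irradiated B6 hosts grafted with B6 and B6D2F1 bone marrow, and Tconv with Treg came from hosts that also received Treg expanded ex vivo. The KO and WT Tconv were the transferred cells, and the Treg were wild-type. The 12 groups held 3 libraries each, 36 in all. The labels do not say what the replicate numbers stand for, so the p-values measure the spread between these libraries.

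TOX and TOX2 are transcription factors of the HMG-box family, which bind DNA by its structure and bend it. In T cells, TOX is induced by calcium signalling through NFAT and is known as a regulator of the chromatin of exhausted cells, in which persistent antigen keeps inhibitory receptors such as PD-1, LAG-3 and TIM-3 switched on. TOX also acts during CD4 T cell development in the thymus. TOX2 acts in follicular helper cells and beside TOX in exhausted cells. HP1 proteins bind histone H3 methylated at lysine 9, the mark of heterochromatin, and HP1α and HP1γ are encoded by Cbx5 and Cbx3.

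The promoters of both genes are shown because their accessibility followed different courses. The 250 bases before each start site are printed 5′ to 3′ on the strand of the gene, taken from GRCm39, Tox at chr4:6991645-6991894 on the minus strand and Tox2 at chr2:163044771-163045020 on the plus strand. The Tox sequence held 3 CpG dinucleotides at a GC content of 46.4%, and that of Tox2 held 25 at 70.4%.
Tox promoter: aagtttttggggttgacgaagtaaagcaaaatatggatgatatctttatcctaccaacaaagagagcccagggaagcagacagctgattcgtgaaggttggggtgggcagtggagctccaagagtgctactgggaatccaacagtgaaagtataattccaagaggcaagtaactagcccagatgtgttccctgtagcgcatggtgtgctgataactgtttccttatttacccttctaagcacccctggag
Tox2 promoter: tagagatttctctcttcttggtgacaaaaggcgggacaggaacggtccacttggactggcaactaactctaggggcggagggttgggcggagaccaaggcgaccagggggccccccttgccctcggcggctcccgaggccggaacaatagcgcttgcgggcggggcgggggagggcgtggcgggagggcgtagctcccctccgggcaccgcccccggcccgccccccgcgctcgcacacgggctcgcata

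Most of the accessible sites lay far from these promoters, and 7 are shown because the comparisons turn on them. Positions are given in kb from the start site of the gene, negative upstream and positive inside the gene. For each site the 300 bases around the peak's centre are printed on the strand of the gene. Capitals mark matches to 1 of 6 motifs, searched on both strands: AP-1 (TGANTCA), NFAT (TGGAAA), NR4A (AAAGGTCA), TCF/LEF (CTTTGAA), RUNX (TGTGGTT) and ETS (ACAGGAAG). A match on the opposite strand appears as the reverse complement, and a match is a run of letters, not a site shown to be bound. Neither promoter sequence above held any of the 6 motifs. The first pair closed when naive cells became Tconv: Tox at −463.7 kb (chr4:7455200-7455499, with a TCF/LEF match) and at −372.6 kb (chr4:7364055-7364354, with an ETS match).
Tox −463.7 kb: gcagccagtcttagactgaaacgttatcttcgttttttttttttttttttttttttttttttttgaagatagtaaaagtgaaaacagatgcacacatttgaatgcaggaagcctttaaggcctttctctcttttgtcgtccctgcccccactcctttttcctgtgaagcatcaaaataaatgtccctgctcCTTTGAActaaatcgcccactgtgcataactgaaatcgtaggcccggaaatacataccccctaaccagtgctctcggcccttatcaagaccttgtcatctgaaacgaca
Tox −372.6 kb: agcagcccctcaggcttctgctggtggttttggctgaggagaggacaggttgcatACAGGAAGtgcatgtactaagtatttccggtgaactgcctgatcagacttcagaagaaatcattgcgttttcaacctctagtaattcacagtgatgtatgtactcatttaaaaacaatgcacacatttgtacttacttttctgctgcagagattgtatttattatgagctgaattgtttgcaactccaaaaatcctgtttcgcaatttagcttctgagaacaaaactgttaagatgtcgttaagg
The next 3 lay in introns of Tox and were more open in HP1γ KO Tconv with Treg: +33.2 kb (chr4:6958275-6958574, NFAT), +50.5 kb (chr4:6940975-6941274, AP-1) and +60.9 kb (chr4:6930630-6930929, AP-1).
Tox +33.2 kb: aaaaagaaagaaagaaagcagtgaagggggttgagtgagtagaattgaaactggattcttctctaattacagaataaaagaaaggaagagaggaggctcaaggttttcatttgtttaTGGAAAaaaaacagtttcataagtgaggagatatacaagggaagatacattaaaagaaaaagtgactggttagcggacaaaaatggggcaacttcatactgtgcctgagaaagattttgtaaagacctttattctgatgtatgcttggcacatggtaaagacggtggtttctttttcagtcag
Tox +50.5 kb: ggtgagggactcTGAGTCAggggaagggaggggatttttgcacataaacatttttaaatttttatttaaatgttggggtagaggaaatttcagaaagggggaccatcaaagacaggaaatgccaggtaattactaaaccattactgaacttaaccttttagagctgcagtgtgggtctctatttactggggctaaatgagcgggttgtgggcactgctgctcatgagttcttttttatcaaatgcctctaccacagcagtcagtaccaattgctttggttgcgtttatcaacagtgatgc
Tox +60.9 kb: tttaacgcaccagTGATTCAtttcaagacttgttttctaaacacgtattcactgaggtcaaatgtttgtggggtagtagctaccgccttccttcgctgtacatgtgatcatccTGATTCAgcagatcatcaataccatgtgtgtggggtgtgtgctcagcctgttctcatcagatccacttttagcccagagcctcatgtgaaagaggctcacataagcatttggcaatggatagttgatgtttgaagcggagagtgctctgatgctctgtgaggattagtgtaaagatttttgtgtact
The last pair lay upstream of Tox2 and opened in Tconv: −47.9 kb (chr2:162997020-162997319, NFAT and AP-1) and −46.9 kb (chr2:162997935-162998234, RUNX, AP-1 and ETS).
Tox2 −47.9 kb: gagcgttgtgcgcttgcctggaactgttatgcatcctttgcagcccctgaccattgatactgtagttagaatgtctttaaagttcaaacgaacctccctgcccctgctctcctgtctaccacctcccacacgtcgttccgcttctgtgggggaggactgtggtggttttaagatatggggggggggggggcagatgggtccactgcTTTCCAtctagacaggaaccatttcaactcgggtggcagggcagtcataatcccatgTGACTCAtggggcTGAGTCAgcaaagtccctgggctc
Tox2 −46.9 kb: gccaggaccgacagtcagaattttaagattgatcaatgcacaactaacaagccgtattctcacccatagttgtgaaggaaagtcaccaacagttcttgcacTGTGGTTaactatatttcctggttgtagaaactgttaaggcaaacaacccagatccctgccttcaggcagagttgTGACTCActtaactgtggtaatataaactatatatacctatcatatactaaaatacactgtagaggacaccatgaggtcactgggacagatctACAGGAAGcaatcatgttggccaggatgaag

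Over the central 300 bases of every peak, an AP-1 match was found in 11 of the 89 Tox peaks, in 3 of the 14 Tox2 peaks and in 13.0% of all peaks. NFAT letters were in 27 Tox peaks, 3 Tox2 peaks and 23.7% of all, and TCF/LEF letters in 12, 1 and 7.92%. RUNX was found in 15, 2 and 12.9%, ETS in 7, 2 and 8.53%, and NR4A in 3, 0 and 1.94%. Of the 103 peaks, 59 of Tox and 7 of Tox2 lay in introns. Tox had 1 promoter peak, 2 exon peaks and 27 peaks upstream, reaching from −611.7 to +302.8 kb. Tox2 had 1 promoter peak, 5 upstream and 1 downstream, from −47.9 to +127.8 kb. Of 15172 protein-coding genes that were nearest to a peak, 3 had at least as many such peaks as Tox, and the median was 3 peaks. Tox peaks had a median width of 570 bp and Tox2 peaks of 870 bp, against 750 bp for all peaks.

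The libraries held 1.49 to 96.8 M reads in peaks, with a median of 54.8 M. All HP1γ libraries held at least 19.4 M. The study left out 3 HP1α libraries of Tconv with Treg for poor quality, and the HP1α fit used those that remained, 1 from KO cells (50.7 M reads) and 2 from WT cells (12.7 and 1.49 M). The promoters of the T cell genes Cd3e, Cd3d, Cd28 and Lat had peaks with reads in every group. Those of Cd3e and Lat were lowest in HP1α WT Tconv with Treg, at 7.80 and 8.84 CPM (counts per 1 M reads in peaks, with TMM scaling) per kb. Of the B cell markers Pax5, Cd79a and Ms4a1, only Pax5 had a peak within 1 kb of its start site, and it ranged over libraries from 1.77 to 15.6 CPM per kb. The Cd4 promoter stood at 63.2 to 74.4 CPM per kb in the 3 HP1γ KO groups, which carry Cd4-cre, and at 6.86 to 12.3 in the other 9. No such peak was present for Cd79a, Ms4a1, Cd8a, Ncr1, Klrb1c, Csf1r or Lyz2. In bulk libraries, more cells with an open site and more openness per cell cannot be told apart.

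Summed over its 89 peaks, accessibility at Tox was lower in Tconv than in naive cells, in both lines and genotypes, and higher again in Tconv taken from hosts with Treg. Summed over its 14 peaks, Tox2 was lowest in naive cells and highest in HP1γ KO Tconv with Treg. In HP1γ WT cells, the 3 naive libraries had 593, 568 and 578 CPM at Tox, Tconv 214, 209 and 226, and Tconv with Treg 406, 312 and 282. In HP1γ KO cells, the libraries had 611, 728 and 673 CPM in naive cells, 311, 370 and 290 in Tconv and 678, 483 and 560 in those with Treg. KO libraries lay above WT libraries in each condition without overlap. The means of KO over WT were 1.16 in naive cells, 1.495 in Tconv and 1.72 in those with Treg. At Tox2 the HP1γ WT libraries had 116, 114 and 113 CPM in naive cells, 140, 117 and 152 in Tconv and 202, 151 and 155 in those with Treg. The KO libraries had 111, 110 and 110, then 159, 194 and 196, and then 330, 263 and 264. The KO was slightly below the WT in naive cells, at a ratio of 0.962, and above it in Tconv (1.34) and with Treg (1.69), again without overlap.

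**Figure D1:**
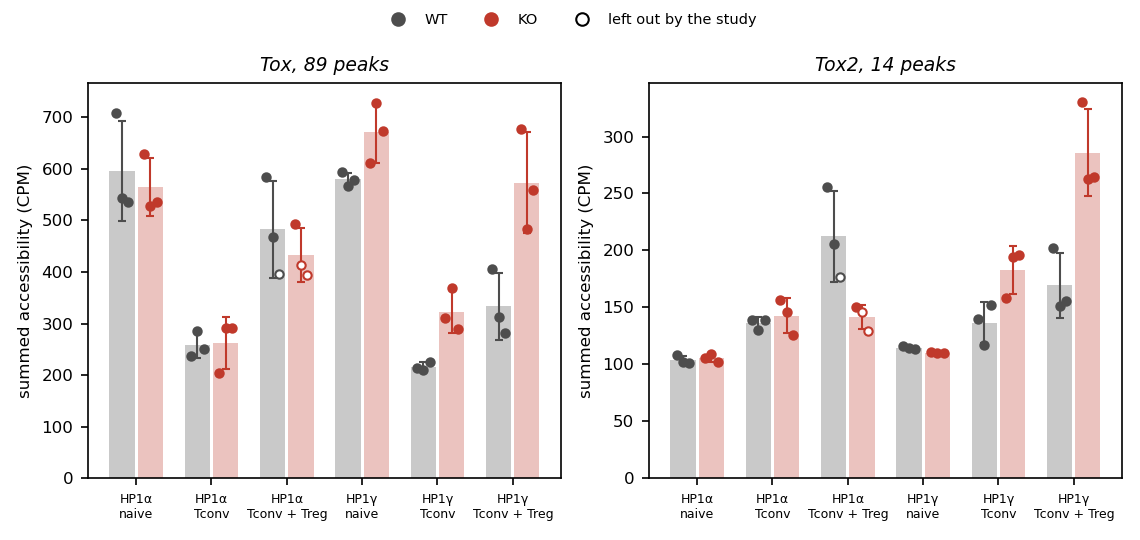
Accessibility summed over the peaks of Tox (89 peaks) and Tox2 (14 peaks) in the 12 groups, in CPM on axes that start at 0. Bars give the mean and lines the SD of 3 libraries, points are libraries, and open points are the 3 libraries left out by the study. Tox is high in naive cells and low in Tconv, and the HP1γ KO libraries lie above their WT in Tconv with Treg (678, 483 and 560 against 406, 312 and 282).

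In the order of the 12 group means, Tox was highest in HP1γ KO naive cells (671 ± 58.9 CPM, SD, n = 3). HP1α WT naive cells (596 ± 96.9), HP1γ WT naive cells (579.6 ± 13.1), HP1γ KO Tconv with Treg (574 ± 98.4) and HP1α KO naive cells (564 ± 56.1) followed. Then came HP1α WT (483 ± 94.2) and KO Tconv with Treg (434 ± 52.1), HP1γ WT Tconv with Treg (333 ± 64.7) and HP1γ KO Tconv (323 ± 41.5). HP1α KO Tconv (262 ± 50.5), HP1α WT Tconv (258 ± 25.1) and HP1γ WT Tconv (216 ± 8.77) were lowest. The libraries of neighbouring groups in this order overlapped, except the last pair. The HP1α groups with Treg are given here with all 3 libraries.

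At Tox2 the highest group was HP1γ KO Tconv with Treg (286 ± 38.4 CPM), whose libraries all lay above those of the next group, HP1α WT Tconv with Treg (213 ± 40.0). HP1γ KO Tconv (183 ± 21.1) and HP1γ WT Tconv with Treg (169.5 ± 28.5) came next. The other groups of transferred cells lay between 136 and 143 CPM and overlapped with one another. The 4 naive groups were lowest, between 104 and 114 CPM. Per kb of peak the genes were alike in HP1γ WT naive cells (6.66 CPM per kb for Tox and 6.52 for Tox2), and apart in HP1γ WT Tconv (2.49 and 7.77). Over the 12 group means of summed accessibility, Tox and Tox2 had a Pearson correlation of −0.08, where the groups differ in depth and the naive groups were not transferred.

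A peak was called when its edgeR adjusted p was under 0.05 and its absolute log2 fold change was over 1, the thresholds of the study, with adjustment over all peaks tested. All 103 peaks passed the filter on low counts in every fit.

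Between naive cells and Tconv, Tox peaks changed in opposite directions by position. Activation is used below as a name for this comparison. Its groups also differ in transfer into irradiated hosts and in sorting for TCR Vβ6, and these cannot be told apart. From naive cells to Tconv in HP1α WT cells, 16 Tox peaks rose and 27 fell, while 25.6% of all peaks rose and 13.4% fell. In HP1γ WT cells, 13 rose and 46 fell, against 25.2% and 21.9% of all peaks. All 27 Tox peaks that fell in the HP1α line also fell in the HP1γ line, which is 58.7% of those in the latter. The 10 peaks that rose in both lines were 62.5% of those in the HP1α line and 76.9% of those in the HP1γ line. The median log2 fold change over Tox peaks was −0.50 in HP1α WT and −1.14 in HP1γ WT cells, and over all peaks it was −0.01 and 0.08. In KO cells 12 Tox peaks rose and 28 fell in the HP1α line (23.2% and 16.3% of all peaks), and 11 rose and 37 fell in the HP1γ line (22.4% and 19.9%). Marker promoters moved alongside from naive cells to Tconv. The CD8 T cell gene Cd8b1 went from 22.5 to 3.90 CPM per kb in HP1α WT and from 22.4 to 2.26 in HP1γ WT cells. The myeloid gene Itgam went from 11.5 to 5.13 and from 9.79 to 6.55, the Treg gene Foxp3 from 26.2 to 14.9 and from 22.9 to 21.7, Pax5 from 2.58 to 4.77 and from 2.80 to 4.71, and the erythroid gene Hbb-bt from 0.247 to 2.84 and from 0.0789 to 1.31. Their part in the activation results was not tested.

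The peaks that closed lay mainly upstream of Tox and over its start. In HP1γ WT cells, 22 of 27 upstream peaks fell, and their sum went from 121 CPM in naive cells to 26.4 in Tconv. Over the first 50 kb of the gene 12 of 17 fell, from 293.5 to 74.1 CPM. The upstream peak at −463.7 kb (chr4:7454491-7456210) had 36.7, 34.7 and 31.1 CPM in HP1α WT naive libraries and 7.55, 7.81 and 6.68 in Tconv. All naive libraries were above all Tconv libraries, and the log2 fold change was −2.15 (SE 0.17, edgeR adjusted p = 1.45e-08). The peak at −372.6 kb (chr4:7363541-7364870) went in HP1γ WT cells from 22.8, 22.1 and 20.7 to 4.84, 2.85 and 3.86 CPM (log2 fold change −2.44, SE 0.19, edgeR adjusted p = 5.98e-09). The promoter peak of Tox (+1.5 kb, chr4:6988041-6992190, which covers the start site) stayed the most open of the gene, at 118, 116 and 125 CPM in HP1γ WT naive cells and 49.1, 48.8 and 49.6 in Tconv, and was called lower.

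The stretch between 100 and 150 kb into Tox held 11 of the 16 Tox peaks that rose in HP1α WT cells and 6 of the 13 that rose in HP1γ WT cells. In HP1γ WT cells its 15 peaks had 15.3 CPM in naive cells, 44.5 in Tconv and 74.5 in those with Treg. Of these 15 peaks, 1 fell on activation in HP1γ WT cells and 0 in HP1α WT cells. The stretch made up 2.63% of Tox accessibility in HP1γ WT naive cells and 20.6% in Tconv. At +107.5 kb lay the widest Tox peak (4200 bp, chr4:6882091-6886290), with a log2 fold change on activation of 1.86 in HP1γ WT cells (edgeR adjusted p = 3.73e-07). These stretches were laid out after the values had been seen. TCF/LEF letters were found in 9 of the 46 peaks that fell in HP1γ WT cells, 0 of the 13 that rose and 3 of the 30 not called. They were in 7.92% of all peaks. AP-1 letters were in 2 of the 46, 3 of the 13 and 6 of the 30, and in 13.0% of all peaks. These differences were not tested.

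**Figure D2:**
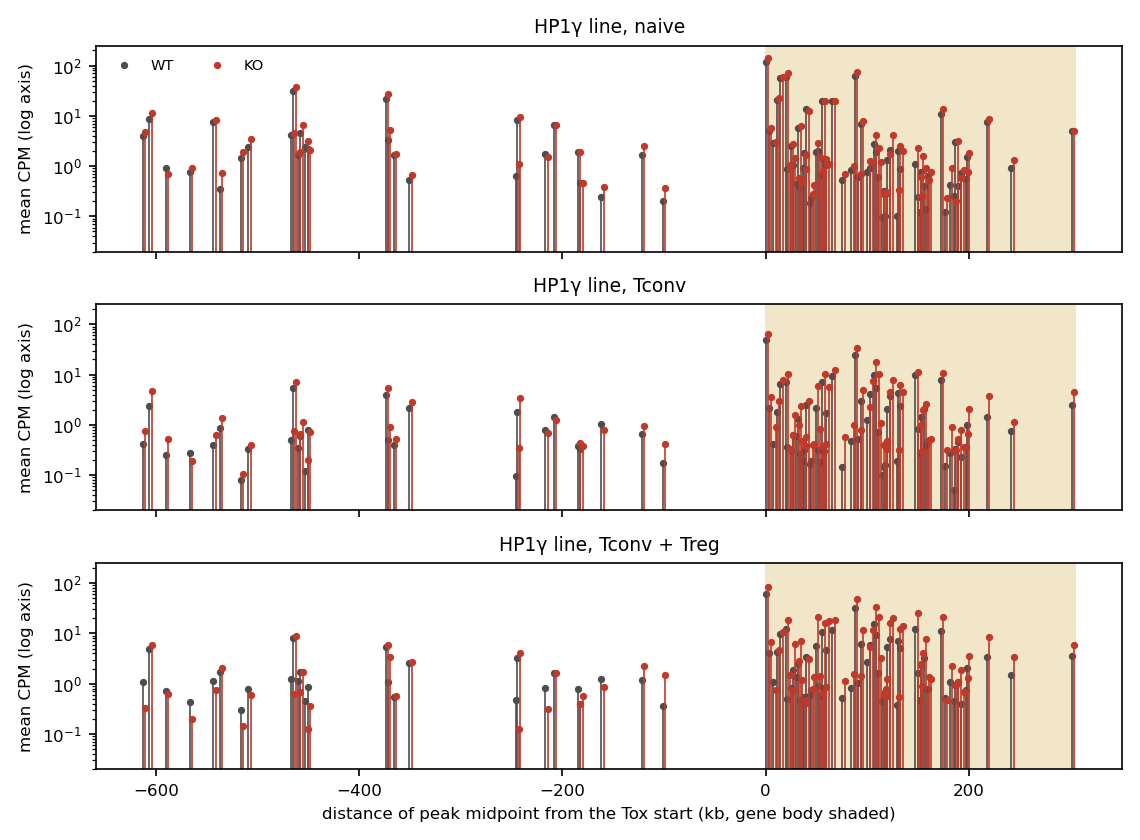
Mean CPM of each of the 89 Tox peaks against distance from the start site in kb, for HP1γ WT and KO cells in the 3 conditions, on a log axis, with the gene body shaded. WT and KO points are shifted sideways so that they do not cover each other. Summed upstream peaks of WT cells stand at 121 CPM in naive cells and 26.4 in Tconv, and peaks 100 to 150 kb into the gene at 15.3 and 44.5.

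At Tox2, peaks on both sides of the start site opened between naive cells and Tconv, and the promoter was not called. In HP1γ WT cells 3 of the 5 upstream peaks were called higher, but their sum, given below, did not rise. Their share of Tox2 accessibility there went from 22.8% in naive cells to 18.3% in Tconv. In HP1α WT cells 9 of 14 peaks rose and 0 fell, and in HP1γ WT cells 7 rose and 1 fell, the last at +82.8 kb, against 25.6% of all peaks higher and 13.4% lower in HP1α WT and 25.2% and 21.9% in HP1γ WT cells. In KO cells 8 rose and 1 fell in the HP1α line and 10 rose and 1 fell in the HP1γ line, against 23.2% and 16.3% of all peaks in the HP1α and 22.4% and 19.9% in the HP1γ line. The 6 peaks that rose in both WT lines were 66.7% and 85.7% of those that rose. The median log2 fold change over Tox2 peaks was 1.57 in HP1α WT and 1.05 in HP1γ WT cells. The upstream peak at −47.9 kb (chr2:162996661-162997680) went in HP1α WT cells from 0.305, 0.135 and 0.139 to 1.27, 2.69 and 2.99 CPM (log2 fold change 3.63, SE 0.51, edgeR adjusted p = 1.42e-05). The intronic peak at +29.2 kb (chr2:163073631-163074720) went in HP1γ WT cells from 4.23, 5.55 and 5.02 to 13.8, 11.1 and 9.79 CPM (log2 fold change 1.29, SE 0.18, edgeR adjusted p = 5.88e-06). The promoter peak (+0.9 kb, chr2:163044071-163047780) had 45.4, 42.3 and 42.9 CPM in HP1γ WT naive cells and 33.9, 28.8 and 40.4 in Tconv and was not called.

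Tox peaks were more open in WT Tconv from hosts with Treg than in WT Tconv from hosts without. In HP1γ WT cells all 89 Tox peaks had a log2 fold change above 0, with a median of 1.01 against 0.04 for all peaks, and 10 Tox peaks and 1 Tox2 peak were called higher, against 0.843% of all peaks. With the replicate number as a block 6 Tox peaks and 0 Tox2 peaks were called. Calls in this comparison rested on single libraries, and ranged from 0 without WT Tconv replicate 2 or WT Treg replicate 3 to 26 without WT Treg replicate 2. They were 1 without WT Tconv replicate 1, 4 without WT Tconv replicate 3 and 2 without WT Treg replicate 1. Calls over all peaks went from 639 to 0, 28 and 1685 in the first 3 of these fits. For the other fits they are not given here, so that a common movement is not shown for them. In HP1α WT cells 14 Tox peaks and 2 Tox2 peaks rose, against 3.96% of all peaks, and 6 in all without WT Treg replicate 1. Of the Tox peaks, 4 were called in both lines, 28.6% of those in HP1α and 40.0% of those in HP1γ. In this comparison the HP1α WT libraries also differed in their markers, with Pax5 at 4.77 CPM per kb in Tconv and 13.4 with Treg and Cd3e at 17.2 and 7.80. The Treg gene Ikzf2 went from 8.39 to 14.7 in HP1α WT cells, while Foxp3 went from 14.9 to 10.1. Ikzf2 went from 8.21 to 9.70 in HP1γ WT and from 11.7 to 16.7 in HP1γ KO cells. The part of these cells in the result was not tested.

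The intronic Tox peak at +121.1 kb (chr4:6869891-6871220) had 2.95, 2.78 and 2.42 CPM in HP1α WT Tconv and 17.1 and 13.4 in the kept libraries with Treg. Both kept libraries were above every Tconv library, with a log2 fold change of 2.502 (SE 0.30, edgeR adjusted p = 0.000327), and the library left out had 5.18 CPM. The Tox2 promoter peak at +0.9 kb rose by 1.30 (SE 0.17, edgeR adjusted p = 0.000465), and by 0.95, under the threshold, without WT Treg replicate 1. In HP1γ KO cells 21 Tox peaks and 2 Tox2 peaks rose with Treg, against 3.02% of all peaks. That total was 9 without KO Tconv replicate 1, 14 without KO Tconv replicate 3, 5 without KO Treg replicate 1 and 37 without KO Treg replicate 2, where calls over all peaks went from 3286 to 1240, 1621, 577 and 6034. In HP1α KO cells, where 1 library with Treg was kept, edgeR called 0 Tox and Tox2 peaks (0% of all peaks), 32 Tox peaks had an unadjusted p under 0.05 (3.39% of all peaks), and DESeq2 called 2 (0.172% of all peaks).

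In naive cells, no Tox or Tox2 peak was called between HP1γ KO and WT, but Tox peaks lay slightly higher in the KO. The edgeR test called 0 of 103 peaks (0.527% of all peaks), 19 Tox peaks and 1 Tox2 peak had an unadjusted p under 0.05 (11.6% of all peaks), and DESeq2 called 4 in all (3.27% of all peaks). The log2 fold change was above 0 for 77 of 89 Tox peaks, with a median of 0.31 against 0.03 for all peaks. All 3 KO libraries lay above all WT libraries at 31 Tox peaks and 1 Tox2 peak, against 14.1% of all peaks.

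In Tconv, 6 Tox peaks and 1 Tox2 peak were more open in HP1γ KO than in WT cells and none less, while 1.21% of all peaks were called higher. The log2 fold change was above 0 for 83 Tox and 12 Tox2 peaks, with medians of 0.71 and 0.78 against 0.03 for all peaks. KO libraries did not overlap with WT libraries and were higher at 41 Tox and 4 Tox2 peaks, against 10.4% of all peaks. They were lower without overlap at 0 Tox peaks and 1 Tox2 peak, against 8.45% of all peaks. The calls depended on single libraries, with 0 of the 7 left without KO replicate 2 or WT replicate 2, 1 without WT replicate 1 and 12 without WT replicate 3. Calls over all peaks went from 1252 to 506, 239, 510 and 2250 in these fits. The Treg gene Ikzf2 stood at 8.21 CPM per kb in WT and 11.7 in KO Tconv and at 11.6 and 16.9 in naive cells, and the myeloid gene Itgam at 6.55 and 4.80 in Tconv and at 9.79 and 8.38 in naive cells, and their part in the result was not tested. The intronic Tox peak at +60.9 kb (chr4:6930071-6931490) had 2.48, 0.912 and 1.80 CPM in WT and 4.01, 7.599 and 5.36 in KO Tconv. The groups did not overlap, with a log2 fold change of 1.70 (SE 0.35, edgeR adjusted p = 0.0175). Without KO replicate 2 the adjusted p was 0.0779, and it was 0.106 with WT replicate 2 left out. The peak at +219.2 kb (chr4:6771731-6773250) had 1.21, 1.57 and 1.54 CPM in WT and 3.86, 4.85 and 2.43 in KO, with a log2 fold change of 1.36 (SE 0.29, edgeR adjusted p = 0.0207). Its adjusted p was over the threshold, at 0.0944, 0.0884 and 0.097, without KO replicate 2, WT replicate 1 or WT replicate 2. The peak farthest upstream but 1, at −605.7 kb (chr4:7596051-7598560), had 2.15, 2.06 and 2.76 CPM in WT and 3.26, 5.86 and 4.87 in KO Tconv, at the edge of the threshold (log2 fold change 1.001, SE 0.20, edgeR adjusted p = 0.0152). Its log2 fold change was 0.83 and 0.96 without KO replicates 2 and 3, and 0.94 and 0.91 without WT replicates 1 and 2. With Treg it was not called (0.31, edgeR adjusted p = 0.275).

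With Treg, more Tox peaks were called between HP1γ KO and WT cells than in naive cells or in Tconv. More of all peaks were also called, with 1.21% higher in Tconv and 4.76% with Treg. The median log2 fold change over Tox peaks did not grow, at 0.71 in Tconv and 0.61 with Treg. In the KO 17 Tox peaks and 4 Tox2 peaks were more open and 2 Tox peaks less open, while 4.76% of all peaks were called higher and 5.83% lower. With the replicate number as a block, 16 and 4 were higher and 4 Tox peaks lower. With KO replicate 1 left out the total of 23 became 13, as it did with WT replicate 2 left out, and calls over all peaks went from 7570 to 2813 and 3691. The median log2 fold change was 0.61 over Tox and 0.68 over Tox2 peaks, against −0.03 for all peaks. KO libraries lay above WT libraries at 32 Tox and 7 Tox2 peaks, against 15.3% of all peaks. They lay below at 6 Tox peaks and 1 Tox2 peak, against 16.4% of all peaks. Scaling moved the split, with 17 Tox peaks higher and 2 lower under TMM, 13 and 5 under library size alone and 27 and 3 under loess offsets. Over all peaks called, the share called higher was 44.9%, 32.3% and 64.4% under these scalings. Markers of other cells also moved in this comparison, with Pax5 at 5.74 CPM per kb in WT and 8.44 in KO cells, Cd3e at 20.4 and 22.02 and the Treg gene Ikzf2 at 9.70 and 16.7, while Foxp3 stood at 18.6 and 18.2. Their part in the result was not tested.

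Over the body and promoter of Tox the sum was 289 CPM in WT and 526 in KO cells with Treg, a ratio of 1.82. Over the upstream peaks it was 43.9 and 47.4, a ratio of 1.08, with overlapping libraries. Of the 17 Tox peaks called higher, 15 lay in the gene body, 6 of them between 100 and 150 kb and 4 in the first 50 kb. The body and promoter held 62 of the 89 Tox peaks. Those 17 had a median width of 1420 bp, against 450 bp for the 70 Tox peaks not called. The peaks called lower both lay upstream, at −611.7 and −215.5 kb. At −611.7 kb (chr4:7602941-7603680) WT libraries had 0.809, 0.747 and 1.62 CPM and KO libraries 0.323, 0.334 and 0.346 (log2 fold change −1.58, SE 0.39, edgeR adjusted p = 0.0118).

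**Figure D3:**
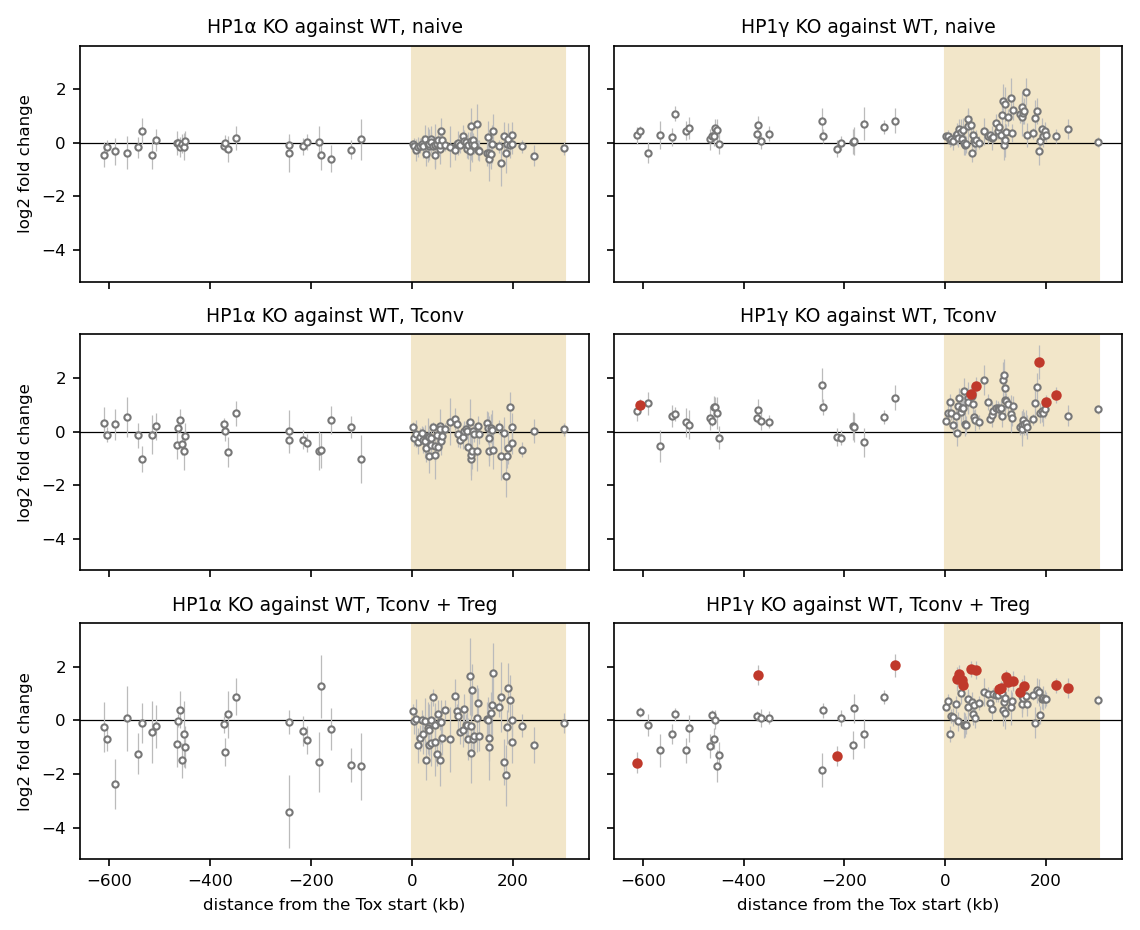
Log2 fold change of KO over WT with its SE at the 89 Tox peaks against distance from the start site in kb, for HP1α (left) and HP1γ (right) in naive cells, Tconv and Tconv with Treg. Called peaks are filled in red. In HP1γ 0, 6 and 19 peaks are called in the 3 conditions, in HP1α 0 in each.

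The peak with the smallest p in this comparison was the Tox intron peak at +50.5 kb (chr4:6940371-6941880), whose window with an AP-1 match is printed above. In HP1γ WT libraries it had 1.93, 2.04 and 1.64 CPM in naive cells, 2.28, 1.64 and 2.72 in Tconv and 8.89, 4.51 and 3.47 in those with Treg. In KO libraries it had 2.63, 3.74 and 2.39, then 5.18, 6.71 and 5.53, and then 28.0, 14.6 and 21.6 CPM. The KO and WT libraries did not overlap in any condition. The log2 fold change of KO over WT was 1.39 in Tconv (SE 0.31, edgeR adjusted p = 0.0261) and 1.91 with Treg (SE 0.31, edgeR adjusted p = 0.00139). The change of this effect with Treg was 0.52 (SE 0.43, edgeR adjusted p = 0.581) and was not called. The same peak rose with Treg in HP1γ KO cells (1.87, edgeR adjusted p = 0.00393), in HP1γ WT cells (1.35, edgeR adjusted p = 0.0451) and in HP1α WT cells (2.25, edgeR adjusted p = 0.000792).

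Other called sites of the Tox body were also more open in KO cells with Treg. At +33.2 kb (chr4:6957921-6958930), where the window holds an NFAT match, WT libraries had 3.21, 2.12 and 2.14 CPM and KO libraries 7.95, 4.93 and 8.70 (log2 fold change 1.52, SE 0.25, edgeR adjusted p = 0.00155). This site had closed on activation in HP1γ WT cells (−2.10, edgeR adjusted p = 1.26e-06). At +60.9 kb, with a pair of AP-1 matches, WT libraries had 6.25, 4.26 and 3.52 CPM and KO libraries 25.5, 12.5 and 13.9 (log2 fold change 1.88, SE 0.34, edgeR adjusted p = 0.00256). At +107.5 kb the values were 17.1, 15.7 and 12.9 in WT and 35.1, 29.4 and 37.1 in KO (log2 fold change 1.16, SE 0.20, edgeR adjusted p = 0.00180). At +121.1 kb they were 7.72, 4.31 and 4.05 in WT and 20.05, 13.5 and 15.4 in KO (log2 fold change 1.60, SE 0.29, edgeR adjusted p = 0.00262). At each of these sites the lowest KO library was above the highest WT library. The Tox promoter peak was less affected, at 72.8, 58.6 and 46.6 CPM in WT and 87.1, 79.2 and 81.8 in KO. Its log2 fold change of 0.49 (SE 0.11, edgeR adjusted p = 0.00922) was under the threshold of 1.

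The HP1α line, which shares no library with the HP1γ line, allowed the peaks called higher in HP1γ KO cells with Treg to be described in other cells. Of the 17 Tox peaks, 11 also rose with Treg in HP1α WT cells, against 3 of the 70 Tox peaks not called and 3.96% of all peaks. The 17 were wider than the 70 (median 1420 and 450 bp), and the part of width in these counts was not tested. The 14 Tox peaks that rose with Treg in HP1α WT cells became 5 without WT Treg replicate 1, so that at most 5 of the 11 remained. On activation of HP1α WT cells 8 of the 17 rose and 3 fell, and 8 of the 70 rose and 23 fell, against 25.6% and 13.4% of all peaks. AP-1 letters were found in 5 and NFAT letters in 7 of the 17, and in 6 and 19 of the 70.

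**Figure D4:**
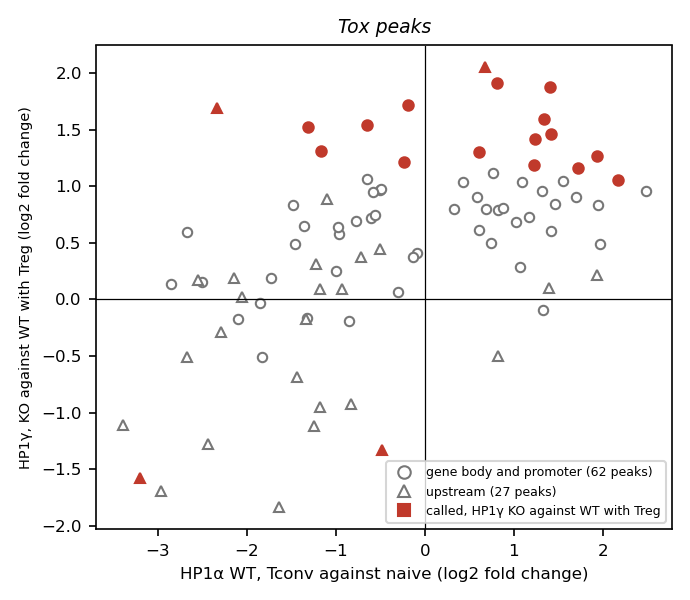
Log2 fold change from naive cells to Tconv in HP1α WT cells (x axis) against log2 fold change of KO over WT in HP1γ Tconv with Treg (y axis) for the 89 Tox peaks. Circles are the 62 peaks of the body and promoter, triangles the 27 upstream, and peaks called on the y axis are red. Of the 17 called higher, 8 rose and 3 fell on activation, and no library is shared between the axes.

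At Tox2, the promoter and an upstream site stood out in HP1γ KO cells with Treg. The promoter peak at +0.9 kb had 61.9, 35.1 and 53.7 CPM in WT and 123, 98.2 and 100.1 in KO libraries, which did not overlap. The log2 fold change was 1.10 (SE 0.18, edgeR adjusted p = 0.00149), and 0.88 without WT replicate 2. Under library size alone or loess offsets it was 0.99 and 0.98, just under the threshold. In Tconv without Treg the same peak had a log2 fold change of 0.75 (SE 0.18, edgeR adjusted p = 0.0352) and was not called. The upstream peak at −37.5 kb (chr2:163005981-163009120) had 46.1, 27.8 and 26.6 CPM in WT and 82.0, 63.7 and 69.3 in KO with Treg (log2 fold change 1.10, SE 0.19, edgeR adjusted p = 0.00213), and 0.97 and 0.95 without WT replicates 2 and 3.

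The other called Tox2 peaks held few reads. At +96.0 kb (chr2:163140771-163141240) WT libraries with Treg had 1.496, 0.747 and 2.05 CPM and KO libraries 7.69, 2.88 and 5.03 (log2 fold change 1.90, SE 0.44, edgeR adjusted p = 0.00802). At −4.2 kb (chr2:163040651-163041020) they had 0.869, 0.896 and 0.571 in WT and 3.59, 1.63 and 2.42 in KO (log2 fold change 1.69, SE 0.43, edgeR adjusted p = 0.0139). KO libraries were above WT libraries at both. In Tconv without Treg, the peak at −46.9 kb (chr2:162997901-162998270) was the Tox2 peak called, with 0.314, 0.255 and 0.400 CPM in WT and 0.605, 1.56 and 1.59 in KO (log2 fold change 1.95, SE 0.43, edgeR adjusted p = 0.0221). Its adjusted p was between 0.0787 and 0.137 without KO replicate 2 or 3 or WT replicate 1 or 2. Summed over the 5 upstream peaks, Tox2 went in WT cells from 26.1 CPM in naive cells to 25.0 in Tconv and 42.5 with Treg, and in KO cells from 23.4 to 45.2 and 89.3. The intronic peak at +29.2 kb, which had risen on activation, did not follow, with a log2 fold change of −0.28 with Treg that was not called.

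**Figure D5:**
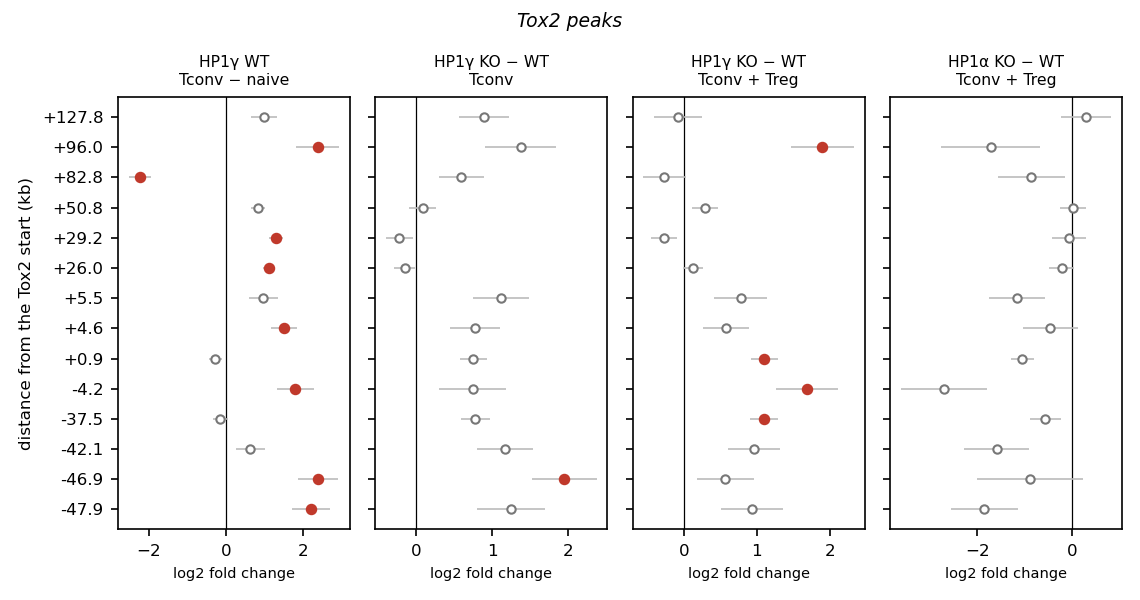
Log2 fold change with its SE at the 14 Tox2 peaks, ordered by position, in 4 comparisons: Tconv against naive cells in HP1γ WT, HP1γ KO against WT in Tconv, HP1γ KO against WT with Treg, and HP1α KO against WT with Treg. Called peaks are filled in red. The promoter peak at +0.9 kb stands at 1.10 in HP1γ and at −1.05, not called, in HP1α with Treg.

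In HP1α KO against WT cells, the edgeR fit called 0 Tox and Tox2 peaks in each condition, while with Treg other settings called Tox2 peaks lower. In naive cells edgeR called 0 of 103 peaks (0.00140% of all peaks), 0 had an unadjusted p under 0.05 (0.633%) and DESeq2 called 0 (0.00979%). In Tconv edgeR called 0 (0% of all peaks), 3 Tox peaks had an unadjusted p under 0.05 (3.05%) and DESeq2 called 0 (0.0293%). With Treg edgeR called 0 (0.229% of all peaks), 7 Tox and 4 Tox2 peaks had an unadjusted p under 0.05 (17.4%) and DESeq2 called 2 Tox2 peaks lower, at +0.9 and −4.2 kb (3.87% of all peaks called by it in either direction). At this depth, with 1 KO library against 2, a test on simulated data recovered 21% of 100 peaks changed by a log2 fold change of 2, so that a difference of this size was often not detectable.

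With Treg the Tox2 values of HP1α cells lay in the other direction from those of HP1γ cells. Summed Tox2 accessibility was 256 and 205 CPM in the kept WT libraries and 149.95 in the kept KO library. Those left out had 177 in WT and 146 and 129 in KO, so that all 3 KO libraries lay below all 3 WT libraries. KO over WT was 0.666 with all libraries and 0.651 with those kept. The KO libraries were below the WT libraries at 6 of 14 Tox2 and 4 of 89 Tox peaks, against 5.53% of all peaks. They were above at 1 Tox2 peak and 3 Tox peaks, against 5.50% of all peaks. The Tox2 promoter peak had 106 and 73.8 CPM in the kept WT libraries and 43.9 in the kept KO library, with a log2 fold change of −1.05 (SE 0.24, edgeR adjusted p = 0.0605). It was −0.72 with all libraries (edgeR adjusted p = 0.189), and it was called lower with the replicate block (−1.12, edgeR adjusted p = 0.0408), library size alone (−1.16, edgeR adjusted p = 0.00858), loess offsets (−1.33, edgeR adjusted p = 0.00781) and DESeq2 (−1.02, adjusted p = 0.0113). At −4.2 kb the log2 fold change was −2.72 (SE 0.91, edgeR adjusted p = 0.144), or −1.51 with all libraries (edgeR adjusted p = 0.290). The Tox peak at +50.5 kb had 19.0 and 16.6 CPM in the kept WT libraries and 7.501 in the kept KO library (log2 fold change −1.26, SE 0.44, edgeR adjusted p = 0.158), and −0.92 with all libraries (edgeR adjusted p = 0.328). In these groups Pax5 stood at 13.4 CPM per kb in WT and 8.04 in KO, and Cd3e at 7.80 and 12.1. The Treg gene Ikzf2 stood at 14.7 in WT and 10.8 in KO, and Foxp3 at 10.1 and 11.0. The part of these markers in the result was not tested.

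The difference of the knockout effect with Treg between the lines was tested in an edgeR fit over both, in which the HP1α KO arm was 1 library that was assumed to vary like the other groups. In HP1γ minus HP1α, 10 Tox peaks and 6 Tox2 peaks were called higher and 0 lower, while 6.59% of all peaks were called higher and 7.44% lower. The total of 16 was 9 without HP1α WT Treg replicate 1 and 10 without HP1γ KO Treg replicate 1. At the Tox peak at +50.5 kb the log2 difference was 3.11 (SE 0.57, edgeR adjusted p = 0.000852), and at the Tox2 promoter 2.09 (SE 0.32, edgeR adjusted p = 0.000247). The line cannot be told apart from the Cre, the depth of the HP1α libraries and the markers given above.

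The change of the knockout effect between conditions was tested by itself and gave no call by edgeR. For the effect with Treg minus that without, edgeR called 0 of 103 peaks in HP1γ (0% of all peaks), with 11 Tox and 2 Tox2 peaks at an unadjusted p under 0.05 (14.2% of all peaks) and 3 called by DESeq2 (1.14%), all Tox and lower. The median difference was −0.13 for both genes. For the effect in Tconv minus that in naive cells, edgeR called 0 (0.00559% of all peaks), with 14 Tox and 3 Tox2 peaks at an unadjusted p under 0.05 (11.1% of all peaks) and 0 called by DESeq2 (1.93%), and the medians were 0.36 and 0.50. In HP1α, edgeR called 0 for the effect with Treg minus that without (0% of all peaks), with 3 Tox peaks and 1 Tox2 peak at an unadjusted p under 0.05 (8.98% of all peaks) and 1 Tox2 peak called lower by DESeq2 (0.533% in either direction).

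Genes around TOX in exhausted cells had called peaks in both directions, at shares to be read against the 4.76% of all peaks higher and 5.83% lower in HP1γ KO cells with Treg. The factors upstream of TOX or acting beside it (Nfatc1, Nfatc2, Nr4a1, Nr4a2, Nr4a3, Batf, Irf4, Egr2 and Egr3) had 158 peaks, of which 9 rose and 8 fell in that comparison, near those shares. Among these, Nfatc1, an NFAT factor induced by T cell receptor signals, had 3 of 32 peaks higher, Batf, an AP-1 partner, 4 of 17, and Nfatc2 4 of 25 lower. The 12 genes on whose chromatin TOX is known to act had 277 peaks, of which 14 rose, near the share over all peaks, and 29 fell. The higher peaks lay in 8 of these genes and the lower peaks in 4. The receptors Ctla4 (4 of 20), Havcr2 (2 of 8), Pdcd1 (1 of 9) and Tigit (1 of 14) had higher peaks and none lower, and Lag3 had 0 of 3 called. With so few peaks, a count of 1 cannot be set apart from the share over all peaks. Entpd1, Cd244a, Eomes and Id3 are counted in the totals only. Bach2, a repressor that holds T cells in a resting state, had 11 of 83 lower, Id2 2 of 59 higher and 15 lower, and Tcf7, which encodes TCF1, 2 of 22 lower. The family members Tox3 and Tox4 had 3 peaks and 0 called. In HP1γ KO cells 3 of the peaks of these lists rose and 0 fell in naive cells (0.527% of all peaks called), and 2 rose and 1 fell in Tconv (1.21% of all peaks higher). In HP1α KO cells 0 were called by edgeR in the 3 conditions.

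The genes whose summed accessibility followed that of Tox most closely over the 12 group means, among 4680 protein-coding genes with at least 5 peaks, were Cd200, which encodes an inhibitory surface glycoprotein (r = 0.97), Slc37a2 (0.97), Ntrk3 (0.95), Cacna1d (0.95) and Dnm3 (0.94). Among those closest to Tox2 were Smim36 (0.98), Fgf2 (0.97), Spock2 (0.97) and the protease gene Ctsb (0.97). These are descriptions over 12 means, which differ in line, in depth and in whether the cells had been transferred.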

How the data were processed

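Raw counts per consensus peak, not normalized, were used as the authors deposited them for 36 ATAC-seq libraries. Per the labels and the study's methods, the authors trimmed reads with Trim Galore 0.6.7, aligned them to GRCm39 with BWA, filtered them with SAMtools, called peaks in each sample with HMMRATAC, merged them and counted reads with featureCounts 2.0.3 (versions from the submitters' processing notes). A read can count at neighbouring peaks. Of 71512 intervals, 3 without width were left out. Start sites came from GENCODE on GRCm39, and groups from the labels.

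Lines were fitted apart with edgeR 4.0.16 (R 4.3.3; filterByExpr, TMM, robust quasi-likelihood F test, two-sided, Benjamini-Hochberg over all peaks tested), with 15 kept HP1α and 18 HP1γ libraries, and the difference between lines in a joint fit. There were 18 comparisons. CPM used TMM library sizes, and the prior count was 2. The biological coefficient of variation was 26.6% in HP1α and 22.2% in HP1γ. Markers are the CPM per kb of the peak within 1 kb of the start site. DESeq2 1.42.0 and limma 3.58.1 (loess offsets, span 0.3) served alternatives, with Python 3.11.15 for counts and figures.

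Named peaks were the promoter peaks, the 3 Tox and 2 Tox2 peaks of smallest p in each comparison of KO and WT, and the peak of each gene with the smallest p in each other comparison. The sites at −215.5 and +82.8 kb were named for their counts after their values were seen. Besides the upstream factors named in the report, the listed genes were Tox3, Tox4, Pdcd1, Lag3, Havcr2, Tigit, Ctla4, Entpd1, Cd244a, Tcf7, Eomes, Id2, Id3 and Bach2. A marker gene and a gene most like Tox2 are not reported here. Members, lists and motifs were chosen with earlier results of these data known, and stretches of the genes after values were seen.

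Deviations from group means of libraries with the same replicate number correlated over 0.1 in all 3 pairs for HP1α KO and WT naive cells, for HP1γ KO and WT with Treg and between both activated HP1γ WT groups, so that a block was fitted as an alternative. On simulated data for the knockout with Treg, edgeR recovered 21% of 100 peaks changed by a log2 fold change of 2 in HP1α (3 false calls, 71483 peaks) and 97% in HP1γ (9 false calls, 71497 peaks).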

Additional observations from a re-analysis of the deposited data

Results flagged for a closer look

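In an edgeR test of the difference of the knockout effects with Treg over both lines, 10 Tox peaks and 6 Tox2 peaks were called higher in HP1γ minus HP1α, against 6.59% of all peaks higher and 7.44% lower. At the Tox2 promoter peak at +0.9 kb the difference of the log2 fold changes, HP1γ minus HP1α, was 2.09, and at the Tox intron peak at +50.5 kb it was 3.11. The HP1α value rests on 1 KO and 2 WT libraries, with the spread of the lone KO library taken from the other groups, and the lines differ in Cre and depth, which cannot be told apart from the protein removed.

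Summed over the 14 Tox2 peaks, all HP1γ KO libraries lay below all WT libraries in naive cells, at a ratio of 0.962, and above them in Tconv (1.34) and in Tconv with Treg (1.69). With Treg, all 3 HP1α KO libraries lay below all 3 WT libraries, at a ratio of 0.666 that includes the libraries left out by the study. The difference in summed levels between conditions and between lines was not tested.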

How the results depend on the processing

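The 18 comparisons were recomputed with DESeq2, library size alone, loess offsets, no filter on low counts, all HP1α libraries, the replicate block, only the groups compared, log2 depth as a covariate, members chosen by the nearest start site of any transcript type, and each library left out. A fit without robust estimation was added after seeing the data. Leaving out the only kept HP1α KO library with Treg could not be fitted. Of the alternatives other than left-out libraries, 143 of the totals of called Tox and Tox2 peaks stayed within 1.5 times the reported value, 17 moved further, 9 went from 0 to calls and 2 went to 0. No named peak that was called turned its direction. In HP1α cells with Treg the kept WT libraries held 12.7 and 1.49 M reads and 1 KO library was kept, and these limits were not varied apart. The cause of the changes below was not tested.

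By nearest start site of any transcript type, 44 Tox and 9 Tox2 peaks remained as members, and with fewer members the totals were lower by construction. They were 26 of 52 and 25 of 49 for activation in HP1α WT and KO, 31 of 67 and 28 of 59 in HP1γ WT and KO, 10 of 16 for Treg in HP1α WT, 6 of 11 in HP1γ WT, 2 of 7 and 14 of 23 for the HP1γ knockout in Tconv and with Treg, and 10 of 16 for the difference between lines. DESeq2 called 2 peaks in place of 0 for the HP1α knockout with Treg and for Treg in HP1α KO cells, 1 in place of 0 for the HP1α difference between conditions, 4 in place of 0 for the HP1γ knockout in naive cells, 15 in place of 7 in Tconv, 31 in place of 11 for Treg in HP1γ WT and 3 in place of 0 for the HP1γ difference between conditions with and without Treg. Fitting only the groups compared gave 5 for the HP1γ knockout in naive cells, 1 in Tconv, 5 in place of 23 for Treg in HP1γ KO cells and 0 for Treg in HP1γ WT cells. Library size alone and loess offsets gave 1 and 1 for the HP1α knockout with Treg and 26 and 5 for Treg in HP1γ WT cells. Log2 depth gave 4 for the HP1γ knockout in Tconv and 0 for Treg in HP1γ WT cells.

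With each library left out in turn, the totals ranged from 0 to 1 for the HP1α knockout with Treg, 6 to 18 for Treg in HP1α WT, 0 to 1, 0 to 12 and 13 to 33 for the HP1γ knockout in naive cells, Tconv and with Treg, 5 to 37 and 0 to 26 for Treg in HP1γ KO and WT, and 9 to 20 for the difference between lines. Activation gave 45 to 52 in HP1α WT, 46 to 50 in HP1α KO, 65 to 69 in HP1γ WT and 54 to 59 in HP1γ KO.

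The replicate block gave 1 peak in place of 0 for the HP1α knockout with Treg and 6 in place of 11 for Treg in HP1γ WT cells, and it changed no other total by over 1.5 times.

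Scaling moved the split of all calls by over 10 percentage points in several comparisons. The share called higher was 68.9% under TMM, 80.2% under library size and 50.7% under loess offsets for the HP1γ knockout in Tconv, 94.4%, 98.4% and 72.5% for Treg in HP1γ WT, 65.6%, 59.7% and 76.2% for Treg in HP1γ KO, 65.6%, 76.3% and 53.3% for activation in HP1α WT, 72.6%, 69.5% and 50.3% for the HP1α knockout with Treg, 47.0%, 49.6% and 59.8% for the difference between lines and 75.0%, 80.0% and 20.5% for the change of the HP1γ knockout effect on activation, from 4 calls under TMM. Library size alone moved the median log2 fold change of all peaks by over 0.1 for activation in HP1α WT (to 0.24) and KO (to 0.14), for Treg in HP1γ WT (to 0.19), for the HP1γ knockout with Treg (to −0.14) and for the HP1γ difference between conditions with and without Treg (to −0.23).

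Direction turned at promoter peaks that were not called, between small values. For Tox at +1.5 kb it turned with log2 depth for the HP1α knockout with Treg (−0.021), with all libraries (−0.034) and log2 depth (−0.076) for the HP1α difference between conditions, and with library size (−0.083), loess offsets (−0.11) and log2 depth (−0.063) for that in HP1γ. For Tox2 at +0.9 kb it turned on activation of HP1α WT cells with library size (0.18), loess offsets (0.26) and log2 depth (0.077), and for Treg in HP1α KO cells with the replicate block (−0.044). With libraries left out in turn, the Tox promoter peak ranged from −0.153 to 0.113 for the HP1α knockout in naive cells (positive without WT replicate 1), from −0.081 to 0.544 for Treg in HP1α WT (negative without WT Treg replicate 1), from −0.015 to 0.631 for the HP1α difference between conditions (negative without WT Treg replicate 2), from −0.065 to 0.274 for that in HP1γ (negative without WT Treg replicate 3) and from −0.317 to 0.327 for the difference between lines (negative without HP1α WT Treg replicate 1 or HP1γ WT Treg replicate 3). The Tox2 promoter peak ranged from −0.024 to 0.0959 for the HP1α knockout in naive cells (negative without KO replicate 1), from −0.025 to 0.170 for activation of HP1α KO cells (negative without KO naive replicate 3) and from −0.150 to 0.024 for that of WT cells (positive without WT naive replicate 1).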
